A study of Mus musculus with 5 samples.

Results

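The thrombospondin genes Thbs1, Thbs2, Thbs3, Thbs4 and Comp were followed across the cell types of the neonatal growth plate and between Trpv4 genotypes. The members were chosen by gene name, and all 5 were found among the 29818 genes of the count matrices. Single cells had been taken from the femoral and tibial growth plate cartilage of 5 littermate pups (strain C57BL/6J), with 1 library per pup. Pups 1 and 2 were labelled wild type (WT, n = 2). Pups 3, 4 and 5 were labelled mutant (Mutant, n = 3) and carried a conditional knock-in Trpv4 allele that codes for the p.R594H form of this calcium channel, with Cre driven by the Col2a1 promoter, which is active in chondrocytes. Whether the WT pups carried the Cre transgene or the unrecombined allele is not given in the sources used here. The sample labels give them an age of 5 days after birth (P5), whereas the design text of the series has 3 days.

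Thrombospondins are large secreted glycoproteins that bind calcium, other matrix proteins and receptors at the cell surface. Thrombospondin 1 and thrombospondin 2 form trimers, bind CD36 and CD47 and limit the growth of blood vessels, and thrombospondin 1 can also activate latent TGF-β. Thrombospondin 3, thrombospondin 4 and COMP form pentamers. COMP is abundant in cartilage and tendon, where it binds collagens, matrilins and aggrecan, and in humans its mutations cause pseudoachondroplasia and multiple epiphyseal dysplasia, in which the misfolded protein builds up in the endoplasmic reticulum of chondrocytes.

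The 5 genes lie on different chromosomes (GRCm38, GENCODE M21). Thbs1 (ENSMUSG00000040152.8) lies at chr2:118111876-118127133 on the plus strand and Thbs2 (ENSMUSG00000023885.9) at chr17:14665500-14694235 on the minus strand. Thbs3 (ENSMUSG00000028047.11) lies at chr3:89215180-89226837 on the plus strand, Thbs4 (ENSMUSG00000021702.7) at chr13:92751590-92794818 on the minus strand and Comp (ENSMUSG00000031849.9) at chr8:70373558-70382066 on the plus strand. Related genes could share reads, so the longest coding transcript of each member was compared with that of each other member. The longest identical run was 26 bases in 2 of the 10 pairs and between 15 and 21 bases in the others. Both 26-base runs are shown, as the stretches in which reads of these members could be hardest to tell apart, and the run of Comp and Thbs4 begins at base 1692 of 2416 in Comp and at base 2432 of 3198 in Thbs4. The run of Thbs1 and Thbs2 begins at base 2542 of 5848 and at base 2680 of 5895.
Comp and Thbs4: cagaccatgaacagtgaccctggcct
Thbs1 and Thbs2: ggagaccgctgtgacaactgccccta

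Genes on the opposite strand overlap 2 of the members. The lincRNA Gm29233 shares 208 exonic bases with Thbs1, which is 3.43% of the exonic bases of Thbs1. Mtx1, which codes for a protein of the outer mitochondrial membrane (chr3:89209081-89227088, minus strand), shares 318 exonic bases with Thbs3, or 6.59%. Whether the counting used strand is not given in the sources used here, so reads of these overlaps may be shared between the genes. The highest mean level of Mtx1 in any cell class was 31.4 CPM. CPM, the unit of the levels by cell class below, is the count of a gene per 1000000 UMIs (unique molecular identifiers, 1 for each captured transcript) of the same cells.

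The promoters of Thbs2, Thbs3 and Thbs4 were read from RefSeq (GRCm38.p6), from 250 bases before the start of the gene to 50 bases after it. They are shown to set the sequence at the start of these genes beside their levels by cell class. Capitals mark 3 motifs searched on both strands. They are the TATA box, spelled TATAAA or, on the other strand, TTTATA, the motif CCAAT or, on the other strand, ATTGG, and the GC box, spelled GGGCGG or, on the other strand, CCGCCC. No matches of different motifs overlapped. The sequences run 5′ to 3′ along the strand of the gene, at chr17:14694213-14694512 (minus strand) for Thbs2, chr3:89214930-89215229 (plus strand) for Thbs3 and chr13:92794769-92795068 (minus strand) for Thbs4.
Thbs2: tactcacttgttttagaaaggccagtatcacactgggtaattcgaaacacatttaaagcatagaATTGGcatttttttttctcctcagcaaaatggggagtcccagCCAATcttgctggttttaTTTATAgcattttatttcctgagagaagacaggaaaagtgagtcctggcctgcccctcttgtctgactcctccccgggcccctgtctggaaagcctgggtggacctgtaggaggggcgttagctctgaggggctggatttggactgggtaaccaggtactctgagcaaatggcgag
Thbs3: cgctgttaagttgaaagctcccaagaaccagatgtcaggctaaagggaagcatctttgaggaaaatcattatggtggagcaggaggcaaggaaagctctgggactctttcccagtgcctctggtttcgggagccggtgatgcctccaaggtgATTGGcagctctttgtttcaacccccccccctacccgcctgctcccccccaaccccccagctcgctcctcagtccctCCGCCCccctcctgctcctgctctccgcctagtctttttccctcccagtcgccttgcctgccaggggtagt
Thbs4: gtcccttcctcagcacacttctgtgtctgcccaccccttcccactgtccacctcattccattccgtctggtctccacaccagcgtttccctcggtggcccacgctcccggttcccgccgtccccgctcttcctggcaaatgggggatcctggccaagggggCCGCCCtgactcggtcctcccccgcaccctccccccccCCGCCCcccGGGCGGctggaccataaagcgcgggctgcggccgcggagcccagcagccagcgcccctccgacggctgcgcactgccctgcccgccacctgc

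The Thbs2 promoter, with 48.3% G and C, held the TATA box on the other strand from -126 to -121, where the start of the gene in RefSeq is base 1. For Thbs2 this start lies upstream of the GENCODE start given above, and for Thbs3 and Thbs4 both starts are the same base. It also held a CCAAT box on its own strand from -144 to -140 and another on the other strand from -186 to -182. The Thbs3 promoter (59% G and C) held a CCAAT box from -98 to -94 and a GC box from -21 to -16, both on the other strand. The Thbs4 promoter was the richest of the 3 in G and C (72%, against a median of 52.7% over 32851 promoters) and held 3 GC boxes, at -42 to -37 on its own strand and at -89 to -84 and -51 to -46 on the other. Of all promoters of this length, 13.6% held the TATA box, 37.4% the CCAAT box and 35.7% the GC box, so none of these matches is rare.

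After cells with under 200 or over 6000 genes or over 10% mitochondrial UMIs had been left out, 82516 cells with 743694147 UMIs remained. The WT pups gave 15121 and 16561 cells with medians of 9261 and 8521 UMIs, and the Mutant pups gave 19133, 17887 and 13814 cells with medians of 6657, 6000 and 7016, so depth differed with the genotype label. Pairs of pups shared between 3 and 7 cell barcodes. Xist, the RNA of the inactive X chromosome, was counted at 647 and 632 CPM in pups 3 and 4 and at no more than 0.223 in the others. Ddx3y, a gene of the Y chromosome, was counted at 167, 189.6 and 201 CPM in pups 1, 2 and 5 and at no more than 0.934 in pups 3 and 4. Both WT pups therefore had Ddx3y UMIs, and 2 of the 3 Mutant pups had Xist UMIs. Sex, as read from these genes, was thus not balanced between the genotypes. Trpv4 itself was counted at 159.7 and 102.2 CPM in the WT pups and at 90.3, 147.7 and 175 in the Mutant pups, which does not check a point mutation. Col2a1, the cartilage collagen gene whose promoter drives the Cre, had a UMI in 97.7% to 99.8% of the cells of each pup.

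The cells were grouped into 43 clusters without the 5 members among the features, and 37 clusters were named from marker genes, in 19 classes. Each class name stands for cells that are like that type by these markers, though not always most like it. A class was tried for a name if its score, the mean standardized level of its markers, was within 0.5 of the best. The fibrocartilage cluster led by Cilp2 and Col1a1 scored higher for tendon or ligament cells (1.411 against 1.267). That led by Lgr6 and Cilp2 scored higher for resting chondrocytes (0.781 against 0.754). A cluster of other fibroblasts led by Mt2 and Has1 scored higher for perichondrial cells (1.296 against 1.184). Chondrocytes were not the only cells present, although the labels give chondrocytes as the cell type: tendon or ligament cells (Scx, Tnmd, Mkx) made up 7891 cells, perichondrial cells (Postn, Prrx1) 6001 and macrophages (C1qa, Csf1r) 1182. The level of a gene is given as CPM over the cells of the class in each pup, for pups with at least 20 cells of the class, and values by pup are listed in the order of pups 1 to 5. Levels of different genes were not compared with each other.

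Comp was highest in the hypertrophic class, named for the enlarged chondrocytes at the end of the growth plate column. Of its 3867 cells, 3349 were in a cluster named from Ihh, Pth1r, Panx3, Mef2c and Alpl, genes that rise before or with hypertrophy, and 518 in a cluster for which Col10a1, the collagen gene of hypertrophic cells, was also among the naming markers. The level of Comp in the class was 2894 and 2843 CPM in the WT pups and 3019, 2552 and 2280 in the Mutant pups, a mean of 2717 ± 299 (SD, n = 5). The Tgfbi-expressing chondrocytes followed with 2391, 1675, 1773, 1991 and 1851, a mean of 1936 ± 279. The hypertrophic value was the higher in 5 of 5 pups, although the highest value of the Tgfbi-expressing class exceeded the lowest hypertrophic value. Proliferating chondrocytes came next at 1399 ± 228, below every value of the Tgfbi-expressing class.

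The resting chondrocytes were named from Ucma and Dlk1, among other markers, but not from Pthlh. They had a Comp level that was even across pups, at 1163, 1109, 1156, 1105 and 1092 (mean 1125 ± 32.3). Their 6 clusters ran from 867 to 1341 with pups pooled, and the lowest was a cluster of 2647 cells led by genes of cell division (Top2a, Prc1). Fibrocartilage cells (1100.2 ± 91.5) and articular chondrocytes (983 ± 152) overlapped the range of the resting class. Levels were lower in tendon or ligament cells, at 553, 414, 363, 332 and 527, and in perichondrial cells, at 549, 288, 299.8, 388 and 567. These fibrous classes did not differ from each other beyond the spread between pups. Macrophages had 168 ± 21.9, or 44.9 ± 13.7 when cells scored as doublets were left out, and Schwann cells 57.9 ± 29.7 (n = 2 pups with enough cells). Within the hypertrophic class, the cluster led by Col10a1 and Ihh had 3782 CPM of Comp and the cluster led by Smpd3 and Panx3 had 2564, in cells of all pups pooled.

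Thbs1 was highest in a cell type that is not cartilage. In granulocytes (S100a8, S100a9), a class of 269 cells, it reached 15571, 11036, 15969 and 15256 CPM in pups 1, 2, 3 and 5, a mean of 14458 ± 2300 (n = 4, with too few cells in pup 4). Macrophages had 5123, 2789, 2003, 2279 and 5249, a mean of 3489 ± 1575, and lay below the granulocytes in 4 of 4 pups. The macrophage clusters differed widely among themselves, with 9224 in the cluster led by Mpeg1, Lyz2 and Clec7a, 641 in that led by Cd74 and 168 in that led by Mrc1 and Pf4.

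Among the chondrocytes, Thbs1 was also highest in the hypertrophic class, at 2261, 2280.3, 2258, 2443 and 2185 (mean 2285 ± 95.3). Every hypertrophic value lay above every value of the proliferating chondrocytes (1645 ± 182). The clusters did not separate in this way, since the proliferating cluster led by Arc and Plet1 had 2247 and the other 1219, against 2299 and 2213 in the hypertrophic clusters, with pups pooled. The proliferating, articular (1453 ± 279), Tgfbi-expressing (1332 ± 87.2) and resting (1122 ± 166) classes followed in this order, each overlapping its neighbour. Tendon or ligament cells had 316 ± 38.8 and perichondrial cells 279 ± 74.3. Other fibrous cells had more Thbs1, with 1527 in the cluster of other fibroblasts led by Abca8a and Aldh1a2, in cells of all pups pooled, and 1241 ± 298 in an unnamed cluster led by Chodl and Cilp. Pericytes, which surround small vessels, had 959 ± 176 and endothelial cells 543 ± 169. The annotation places the noncoding gene Gm13986 with its start 674 bases from the start of Thbs1 on the other strand (chr2:117857291-118111202, minus strand), and Gm13986 too was highest in granulocytes, at a mean of 93.4 CPM against 6.03 in macrophages, the next class.

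Thbs2, which is known from fibroblasts and the collagen matrix, was highest among the named classes in tendon or ligament cells, at 1151, 1011, 1188, 1274 and 1106 (mean 1146 ± 97.4). Fibrocartilage cells followed at 1027 ± 138 and were lower in 5 of 5 pups, with overlapping ranges. With coarser clusters (Leiden resolution 0.8) this order turned. Fibrocartilage cells had 1011 and tendon or ligament cells 822, and fibrocartilage cells were the higher in 5 of 5 pups. These classes held other cells there, 13459 and 9803 against 9966 and 7891. The coarser tendon or ligament class took in 4319 cells led by Top2a and Cenpf, with scores of 0.783 for that class and 0.727 for resting chondrocytes. A coarser fibrocartilage cluster of 3541 cells scored highest for perichondrial cells (1.053). At the finer resolution too, both classes joined unlike clusters. With pups pooled, the fibrocartilage cluster led by Cilp2 and Col1a1, which scored higher for tendon or ligament cells, had 1493 and the others 698 and 601. The tendon or ligament clusters had 1334, 1068 and 802. Perichondrial cells had 688, 487, 648, 811 and 613 (mean 649 ± 117.6), all below the lowest fibrocartilage value. A cluster without a class name, led by Ostn, Igfbp3, Aspn and Alpl (4634 cells), had a higher level than any named class, at 1392, 1459, 1542, 1585 and 1457 (mean 1487 ± 76.6). By score this cluster was most like perichondrial cells (1.324, against 1.125 and 1.654 in the named perichondrial clusters). Because its leading genes favoured another class, it was not part of the perichondrial class here or in the tests below.

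Thbs2 was low in the growth plate column itself. It stood at 219 ± 31.6 in resting, 37.8 ± 7.32 in hypertrophic and 37.1 ± 8.15 in proliferating chondrocytes. Articular chondrocytes, outside that column, had 189.8 ± 13.1. The resting level was therefore above the hypertrophic level in every pup, while Comp was lower in resting than in hypertrophic chondrocytes in every pup, as was Thbs1. Over the 14 classes with values in all 5 pups, the highest mean of Thbs2 was 30.9 times the lowest.

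Thbs3 was the most even of the 5 genes across the classes, with a highest mean 9.67 times the lowest over the 14 classes. For the other members this ratio was 15.8 (Thbs1), 19.4 (Comp), 30.9 (Thbs2) and 71.5 (Thbs4). The Tgfbi-expressing chondrocytes had 712, 603, 533, 797 and 756 CPM of Thbs3 (mean 680.1 ± 110), above the proliferating chondrocytes (467 ± 50.8) in 5 of 5 pups with overlapping ranges. Hypertrophic chondrocytes (454 ± 70.6), tendon or ligament cells (410.3 ± 33.7), fibrocartilage cells (384 ± 8.40) and perichondrial cells (363 ± 31.0) came next and overlapped their neighbours. Resting and articular chondrocytes had 307 ± 52.5 and 315 ± 42.1. Blood and vessel classes were lowest among those with all pups, with 70.3 ± 13.3 in macrophages and 78.1 ± 27.6 in endothelial cells.

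Thbs4, a matrix protein of tendon and muscle attachments, had the most uneven levels over these 14 classes, which leave out the granulocytes. Tendon or ligament cells had 1189, 1515, 1286, 1164 and 1238 CPM of Thbs4 (mean 1278 ± 140.3), and perichondrial cells had 733, 479.7, 659, 902 and 625 (mean 679.6 ± 154.5). Every tendon or ligament value lay above every perichondrial value. The clusters of these classes overlapped, with 1606 in the largest tendon or ligament cluster, 944 in that led by genes of cell division (Anln, Top2a) and 283 in that led by heat shock genes (Hspa1b, Hspa1a), against 929 and 386 in the perichondrial clusters led by Aqp1 and by Col6a6. Other fibroblasts (555 ± 149), synovial or superficial cells (503 ± 121) and fibrocartilage cells (391 ± 42.8) followed. The fibrocartilage mean joined unlike clusters, since the cluster led by Cilp and Rspo2 had 1879.7 CPM and the cluster led by Lgr6 and Cilp2 had 89.4. An unnamed cluster led by Chodl, Cilp and Nnat (518 cells) had the highest level of all, at 2354, 2656, 2724, 2936 and 2362 (mean 2606 ± 249). By score this cluster was most like tendon or ligament cells (1.845), but it was not part of that class here or in the tests below.

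In the chondrocytes of the growth plate Thbs4 was low. Its level was 27.9, 35.2, 35.1, 40.9 and 16.1 in resting chondrocytes (mean 31.0 ± 9.56), 28.2 ± 11.4 in the Tgfbi-expressing class, 18.3 ± 7.30 in proliferating chondrocytes and 17.9 ± 4.83 in hypertrophic chondrocytes. Articular chondrocytes had 122 ± 33.8, from 61.5 in the cluster led by Prg4 and Wif1 to 356 in the cluster led by Cilp and Cyfip2. Pup 5 had the lowest Thbs4 level in the resting, Tgfbi-expressing, proliferating and articular classes. The share of perichondrial and tendon or ligament cells among all cells of a pup moved in part with these values, at 17.3%, 16.05%, 16.9%, 21.97% and 10.5% of the cells of pups 1 to 5. Its part in the result was not tested.

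**Figure D1:**
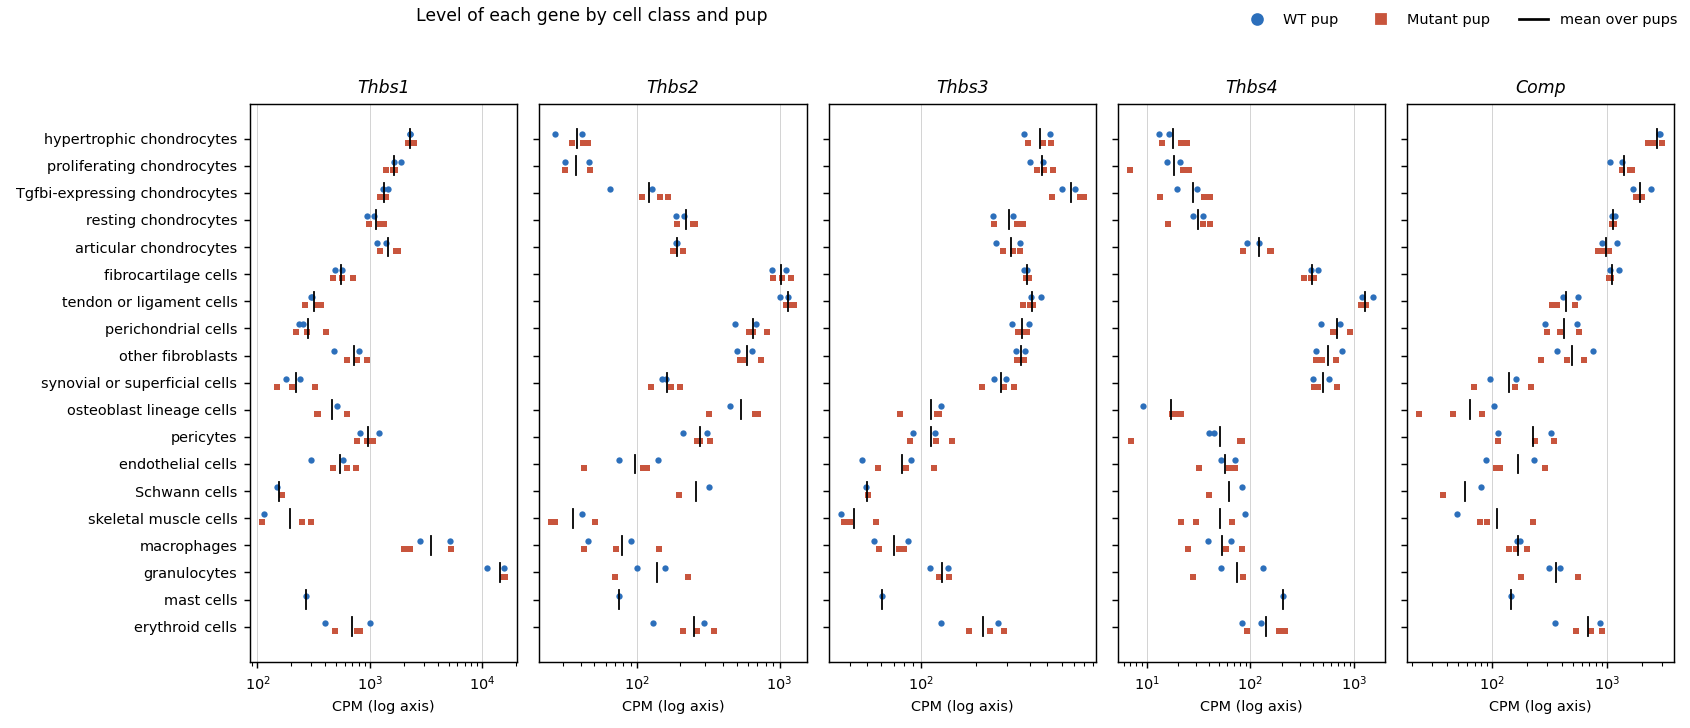
Level of each gene in CPM (log axis) in the 19 named cell classes. Circles are WT pups, squares are Mutant pups and the black bar is the mean over pups. Comp reached its highest mean in hypertrophic chondrocytes (2717), Thbs1 in granulocytes (14458), Thbs2 and Thbs4 in tendon or ligament cells (1146 and 1278) and Thbs3 in the Tgfbi-expressing chondrocytes (680.1).

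Transcripts free in the cell suspension can be captured with any cell, so erythroid cells (Hba-a1, Alas2), which are not known to make matrix proteins, were used as a background. Their levels were not low, with 677 ± 235 CPM for Comp, 698 ± 249 for Thbs1, 249.6 ± 84.0 for Thbs2, 221 ± 64.8 for Thbs3 and 141 ± 57.7 for Thbs4. Macrophages had less than the erythroid cells for every member except Thbs1, in every pup, so the erythroid level was not a background common to all classes. The other 13 classes with all 5 pups were compared with the erythroid cells pup by pup. Comp was above the erythroid level in every pup in 6 of them, all 5 chondrocyte classes and the fibrocartilage cells. Thbs4 was above it in every pup in 5 classes, tendon or ligament, perichondrial, fibrocartilage and synovial or superficial cells and other fibroblasts, and below it in every pup in 7, among them the resting, Tgfbi-expressing, proliferating and hypertrophic chondrocytes. Thbs2 was above it in 4 classes, the tendon or ligament, fibrocartilage and perichondrial cells and other fibroblasts. Thbs3 was above it in 7 classes, these 4 and the Tgfbi-expressing, proliferating and hypertrophic chondrocytes. Thbs1 was above it in 5, the macrophages and the chondrocyte classes other than the resting class. At a median of 7208.5 UMIs per cell, 49.8% of erythroid cells had a UMI of Comp, so its UMIs lay in part of these cells. Whether that part held doublets was not tested. A level below the erythroid level therefore does not decide whether a class makes the transcript. This holds for Thbs1 in perichondrial cells, Thbs4 in the growth plate column and Comp in tendon or ligament cells. The mean of Thbs4 in resting chondrocytes (31.0), the highest of that column, was also below that of macrophages (53.8). Comp in tendon or ligament cells (438 ± 98.1) was above the erythroid level in pup 1 (553 against 351) and below it in the other pups. Without cells scored as doublets, Comp stood at 397 in tendon or ligament cells and 612 in erythroid cells, but at 60.4 in endothelial cells, 46.2 in pericytes and 31.1 in skeletal muscle cells.

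The classes differed in depth, from a median of 4737 UMIs per cell in granulocytes to 22843 in hypertrophic chondrocytes, so every cell was also thinned to 2000 UMIs, which left out 3 cells. At this depth 97.4% of hypertrophic chondrocytes had a UMI of Comp (95.2% to 98.7% over pups), as did 82.0% of resting chondrocytes, 45.8% of tendon or ligament cells and 36.7% of erythroid cells (24.0% to 49.0%). Without thinning the hypertrophic share was 99.9% and the erythroid share 49.8%. For Thbs1, 97.4% of granulocytes and 93.5% of hypertrophic chondrocytes had a UMI, against 32.1% of erythroid cells. In macrophages the share for Thbs1 was 44.4%, and their clusters differed in level as given above.

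Thbs2 had a UMI in 82.4% of thinned tendon or ligament cells (76.5% to 86.7%) and 77.4% of fibrocartilage cells. Erythroid cells had 22.4%, above the hypertrophic (6.26%) and proliferating (6.21%) chondrocytes. The unthinned shares of these last classes, 34.6% and 30.6%, came with median depths of 22843 and 15195.5 UMIs per cell. Thbs3 UMIs were present in 68.1% of Tgfbi-expressing, 58.6% of hypertrophic chondrocytes, 21.6% of erythroid cells and 7.28% of macrophages. Thbs4 UMIs were present in 73.2% of tendon or ligament cells (67.7% to 76.5%), 41.7% of perichondrial cells, 10.6% of erythroid cells and 2.77% of hypertrophic chondrocytes. The unthinned share of tendon or ligament cells with a UMI was 95.7% for Thbs2 and 84.9% for Thbs4.

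**Figure D2:**
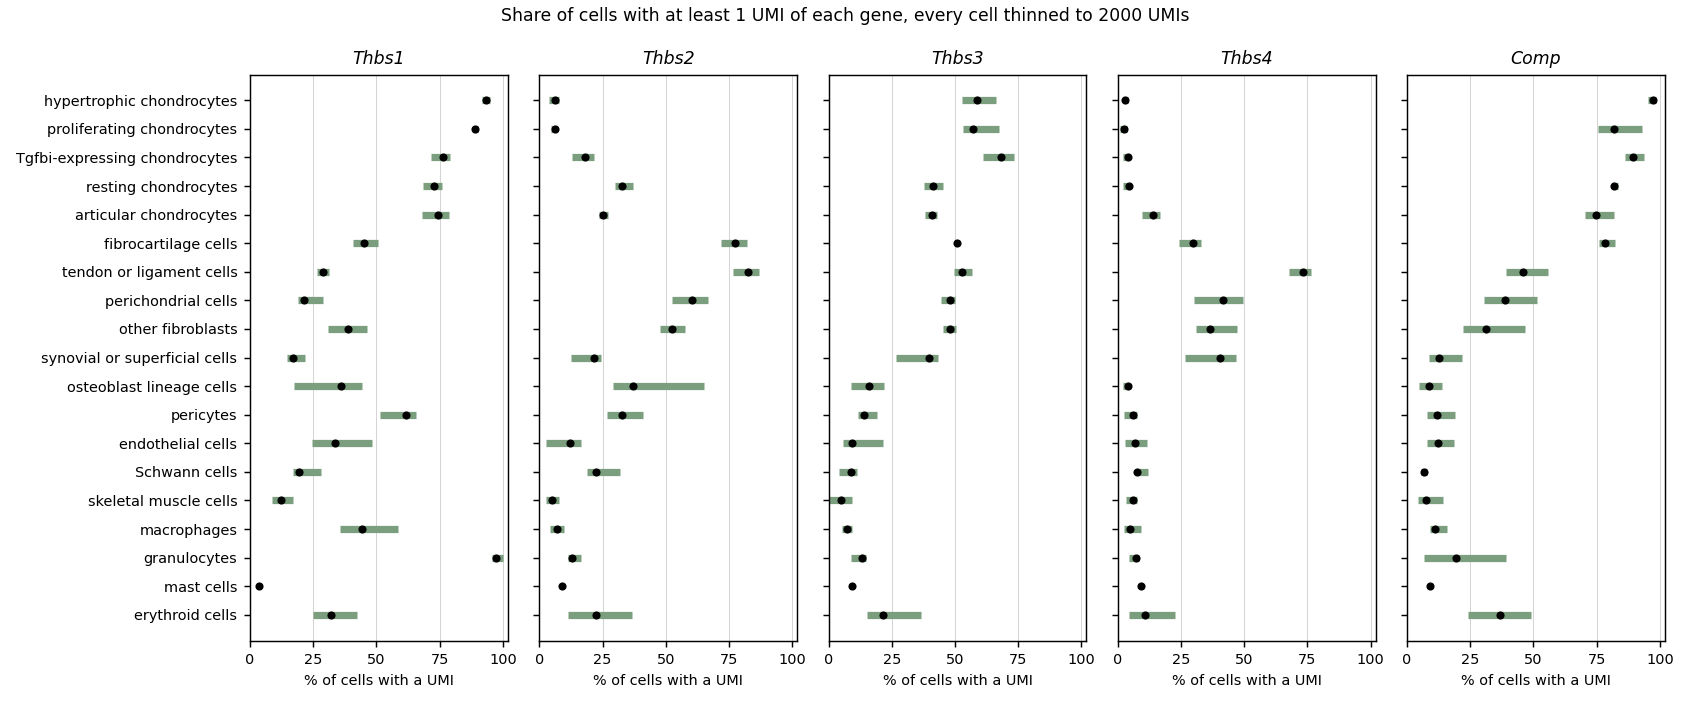
Share of cells with at least 1 UMI of each gene (percent) in the 19 named classes after thinning every cell to 2000 UMIs. Points are shares over all pups and bars run from the lowest to the highest pup with at least 20 cells of the class. Thbs4 reached 73.2% in tendon or ligament cells and 2.77% in hypertrophic chondrocytes, while Comp reached 97.4% in hypertrophic chondrocytes.

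Most chondrocytes and fibrous cells carried transcripts of several members at once. After thinning, 96.6% of hypertrophic chondrocytes, 92.0% of fibrocartilage cells, 89.8% of tendon or ligament cells and 81.9% of resting chondrocytes had UMIs of at least 2 of the 5 genes. In erythroid cells the share was 40.5% and in macrophages 14.6%. Comp and Thbs4, whose proteins both form pentamers, were found together in 32.1% of tendon or ligament cells, 21.0% of fibrocartilage cells and 4.75% of erythroid cells. Of the cells with a Thbs4 UMI, 43.8% of the 5774 tendon or ligament cells and 70.8% of the 2960 fibrocartilage cells also had a Comp UMI. The share of all cells of these classes with Comp was 45.8% and 78.4%. In erythroid cells 44.9% of the 69 cells with a Thbs4 UMI also had Comp, so the tendon or ligament share was not above the erythroid one.

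Over the 19 classes, the level of each member (log2 of the mean CPM plus 1) was set beside those of 7052 genes with at least 50 CPM in some class. These correlations describe class means that share libraries and depth, and have no test. Comp was most like Acan (r = 0.96), the core protein of aggrecan, Fbln7 (0.96) and Dok1 (0.95). Thbs2 was most like Col1a2 (0.95) and Col1a1 (0.94), which code for type I collagen, and Col5a2 (0.90), of type V collagen. Thbs4 was most like Ssc5d (0.94), Spon2 (0.89) and Ccn3 (0.88), and Thbs3 was most like Ccn2 (0.92), a matricellular growth factor of cartilage, Shox2 (0.91) and Tmed3 (0.91). Thbs1 was most like Hcar2 (0.88), a receptor of myeloid and fat cells, F5 (0.87), which codes for coagulation factor V, and its neighbour Gm13986 (0.86).

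Among the members themselves, Thbs3 and Comp had the most similar log2 levels over the classes (r = 0.84), followed by Thbs2 and Thbs4 (0.63) and by Thbs1 and Comp (0.47). Thbs1 and Thbs4 had the opposite tendency (-0.40). The subgroup of trimers (Thbs1 and Thbs2, r = -0.28) was not the pair with the closest pattern.

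**Figure D3:**
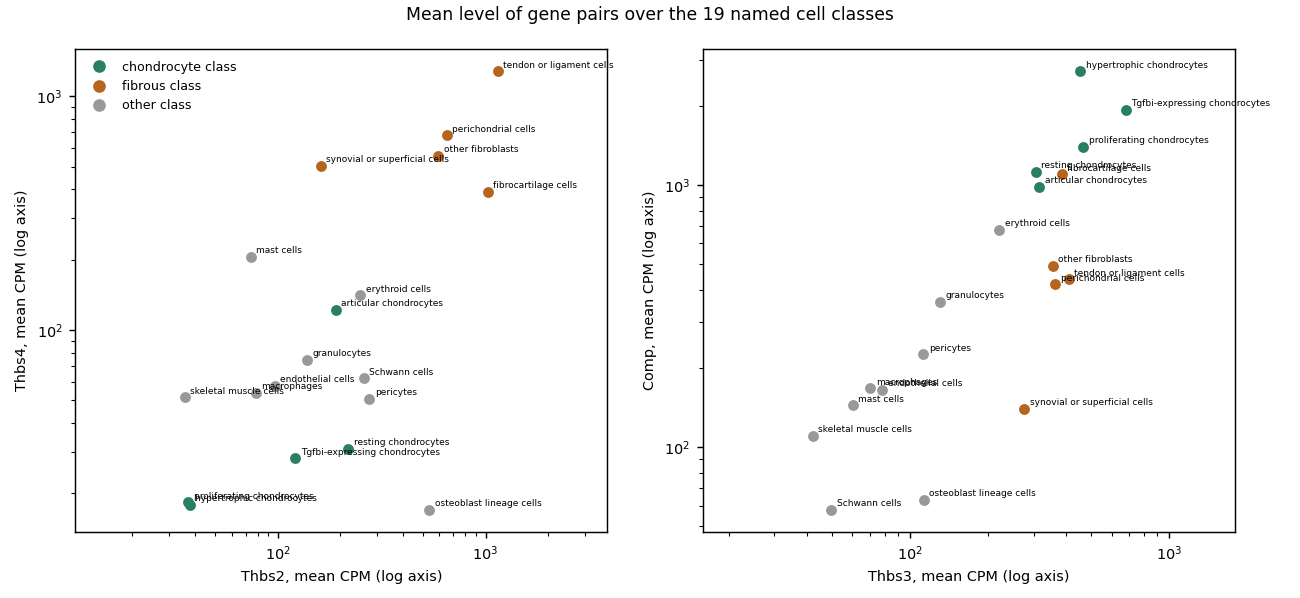
Mean level over pups of Thbs4 against Thbs2 (left) and of Comp against Thbs3 (right), both in CPM on log axes, with 1 point for each of the 19 named cell classes. Green points are chondrocyte classes, brown points fibrous classes and grey points other classes. Fibrous classes other than synovial or superficial cells (161 CPM of Thbs2) lie at the upper right for Thbs2 and Thbs4 (r = 0.63 on the log2 scale). Hypertrophic, proliferating and Tgfbi-expressing chondrocytes lie at the upper right for Thbs3 and Comp (r = 0.84). Resting (307) and articular (315) chondrocytes had less Thbs3 than tendon or ligament cells (410).

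The study asked what the activated Trpv4 allele changes in growth plate cells. UMIs were summed per pup over all cells and over the cells of 6 classes, and Mutant pups were compared with WT pups by edgeR's quasi-likelihood test with Benjamini-Hochberg adjustment over all genes tested. From here on, levels given by pup for the comparison of the genotypes are normalized CPM, that is CPM scaled by edgeR's TMM factors, and they differ from the CPM above. No member passed an adjusted p of 0.05 in any of the 7 comparisons or in the test of the difference between fibrous cells and chondrocytes. The smallest adjusted p of a member was 0.282. The share of all genes past this threshold was 0 in each of the 8 tests, out of 21024 genes for all cells, 15769 for resting, 13373 for articular, 13523 for proliferating and 14673 for hypertrophic chondrocytes, 12526 for perichondrial and 13502 for tendon or ligament cells and 18093 for the difference. At an unadjusted p under 0.05 the share of all genes was 5.56% for all cells, 5.83% for resting, 5.8% for articular, 15.4% for proliferating and 2.43% for hypertrophic chondrocytes, 3.77% for perichondrial cells, 3.2% for tendon or ligament cells and 1.99% for the difference. Of the members, only Comp in proliferating chondrocytes was under 0.05 in this way. DESeq2 also called no member, while it called 48, 16, 1, 174, 3, 1, 1 and 0 genes in these 8 tests in the same order.

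Comp in proliferating chondrocytes had levels of 1373 and 1025 normalized CPM in the WT pups and 1596, 1679.8 and 1357 in the Mutant pups. Both genotypes overlapped, since pup 5 lay below pup 1. The log2 fold change of Mutant over WT was 0.37 with a standard error of 0.15 and a 95% interval from 0.04 to 0.69, and the adjusted p was 0.282. Cluster 16, led by Arc and Plet1, held 591 and 762 of these cells in the WT pups and 250, 168 and 297 in the Mutant pups. Cluster 22, with genes of cell division among its leading genes, held 256 and 298 in the WT pups and 196, 324 and 256 in the Mutant pups, so the genotypes drew on the clusters of the class in different shares. Within cluster 16 the levels were 1056 and 845 against 1265, 1537 and 1212, with a log2 fold change of 0.49 and an adjusted p of 0.659. The genotypes did not overlap there for Comp or for Thbs3 (470 and 430 against 513, 715 and 544), as was so for 23.1% of all genes in that cluster. Within cluster 22 they were 1747 and 1288 against 1786, 1725 and 1446, with a log2 fold change of 0.12 and an adjusted p of 0.844. No member was without overlap there, against 24.5% of all genes in that cluster. Between the WT pups and pup 5 alone, the pups with Ddx3y UMIs, the log2 fold change of Comp over the whole class was 0.18. It was 0.17 without pup 2, 0.57 without pup 1 and 0.09 at a Leiden resolution of 0.8, where the class of this name held 8347 cells against 3398. Cluster 12 (2651 cells) scored highest for the proliferating markers but stayed unnamed and so was not part of this class. Its Comp levels in CPM without the scaling were 1449 and 1177 in the WT pups and 1150, 1440 and 862 in the Mutant pups. No Mutant pup lay above pup 1 there, and this cluster was not tested.

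In the other classes the log2 fold changes of Comp were closer to 0. The hypertrophic chondrocytes, where it was highest, had 2909.6 and 2749 against 3009.8, 2616 and 2309, a log2 fold change of -0.10 with an interval from -0.37 to 0.18, which was -0.20 without pup 3 and -0.0065 without pup 5. In resting chondrocytes the levels were 1166 and 1045 against 1137, 1165.5 and 1118, a log2 fold change of 0.04 from -0.17 to 0.26. The interval in resting chondrocytes was the narrowest of Comp, and the interval in perichondrial cells, from -1.01 to 1.12, the widest. In articular chondrocytes and in tendon or ligament cells the log2 fold changes were -0.16 and -0.15. Both turned without pup 1, to 0.17 and 0.094, and with only the pups with Ddx3y UMIs, to 0.015 and 0.18.

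Thbs1 had its largest difference of level in perichondrial cells, with 234 and 246 CPM in the WT pups and 223, 290.3 and 411 in the Mutant pups. The log2 fold change was 0.36, from -0.23 to 0.95, and the genotypes overlapped. It was 0.099 without pup 5 and 0.54 without pup 3. These levels lie below the erythroid level, which does not decide whether they are expression. Articular chondrocytes gave a similar value of 0.35, with 1455 and 1069.9 against 1167, 1889.7 and 1767. That value was 0.14 without pup 2, 0.22 without pup 4, 0.53 without pup 3 and 0.59 without pup 1. In proliferating chondrocytes the log2 fold change was -0.15, or -0.082 without pup 2 and -0.24 without pup 1, and in hypertrophic chondrocytes 0.05, from -0.15 to 0.26. The proliferating clusters differed in their Thbs1 level, at 2247 in cluster 16 and 1219 in cluster 22, and their shares differed between the genotypes as given above. Within them the log2 fold change had the other sign, at 0.037 and 0.052, as it did in the larger class of 8347 cells at a Leiden resolution of 0.8 (0.046). Granulocytes and macrophages, the classes richest in Thbs1, were not among the classes tested.

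Thbs2 over all cells had 432 and 318 CPM in the WT pups and 478, 587 and 345 in the Mutant pups, a log2 fold change of 0.33 from -0.28 to 0.93. It was 0.12 without pup 2, 0.13 without pup 4, 0.51 without pup 5 and 0.57 without pup 1, and -0.12 with only the pups with Ddx3y UMIs. In a sum over all cells, more cells of a rich class and more RNA per cell cannot be told apart. Within tendon or ligament cells, its levels were 1116 and 957 against 1148, 1445 and 1108, a log2 fold change of 0.25 from -0.12 to 0.62, which was 0.12 without pup 4 and 0.15 without pup 2. Pup 5, the pup with the smallest share of fibrous cells, lay between the WT pups in both comparisons. In normalized CPM Thbs2 was highest in pup 4 in 6 of 6 classes tested and lowest in pup 2 in 5 of them. Without the scaling pup 4 was again highest in each, and pup 5 was lowest in articular (177) and pup 3 in proliferating chondrocytes (31.1).

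Thbs3 had the same pups at its ends in most classes. In normalized CPM it was lowest in pup 2 in 6 of 6 classes and highest in pup 4 in 5, and these pups belong to different genotypes. Without the scaling the order was another in tendon or ligament cells, where pup 4 (366) was lowest and pup 1 (459) highest, and in perichondrial cells, where pup 1 (394) was highest. Over all cells the levels were 395 and 305 against 332, 457 and 396, a log2 fold change of 0.18 from -0.25 to 0.60, which ran from 0.0015 without pup 2 to 0.38 without pup 1. Its largest value in a class was 0.22 in resting chondrocytes, with 325 and 236 against 248, 386 and 349, and it ran from 0.013 without pup 2 to 0.47 without pup 1.

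Thbs4 in tendon or ligament cells, its highest named class, had 1153 and 1435 CPM in the WT pups and 1241, 1321 and 1240.3 in the Mutant pups. In normalized CPM the Mutant pups lay between the WT pups, whereas in the CPM above pup 4 (1164) lay below both, and the log2 fold change was -0.03 from -0.35 to 0.29, and 0.14 without pup 2. Perichondrial cells had 724 and 462 against 661, 947 and 631, a log2 fold change of 0.33 from -0.28 to 0.94, which ran from 0.050 without pup 2 to 0.70 without pup 1. The pups drew on the perichondrial clusters in different shares. The cluster with the higher Thbs4 level, led by Aqp1, held 584 and 513 cells of the WT pups and 859, 1083 and 407 of the Mutant pups, and the cluster led by Col6a6 held 334 and 920 against 731, 408 and 162. Their part in the result was not tested. The largest value of any member was that of Thbs4 in hypertrophic chondrocytes, 0.48 from -0.09 to 1.05, at levels of 16.4 and 12.7 against 21.3, 25.0 and 14.3. These levels lie below the erythroid level, and the value was 0.010 without cells scored as doublets and -0.028 with only the pups with Ddx3y UMIs. The widest interval was also of Thbs4, in proliferating chondrocytes, from -1.52 to 1.60.

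Of the 40 log2 values of the members, which include the 5 differences between fibrous cells and chondrocytes, 29 were above 0. These values share the same 5 pups and in part the same cells, so they are not independent. The share of all genes above 0 was not counted. In normalized CPM the pups of the genotypes overlapped for every member over all cells and in each of the 6 classes, while the shares of all genes whose pups did not overlap were 22.5% for all cells, 23.5% for resting, 23.5% for articular, 34.6% for proliferating and 16.4% for hypertrophic chondrocytes, 20.5% for perichondrial and 20.1% for tendon or ligament cells. The difference of the genotype effect between fibrous cells (perichondrial and tendon or ligament) and chondrocytes was 0.15 (log2) for Thbs1, -0.02 for Thbs2, -0.11 for Thbs3, -0.10 for Thbs4 and -0.08 for Comp, all with an adjusted p of 1. With 1 pup left out, the value ran for Thbs1 from 0.071 (without pup 4) to 0.30 (without pup 3) and for Thbs3 from -0.033 (without pup 4) to -0.25 (without pup 3). The intervals were narrowest for Thbs2, from -0.21 to 0.18, and widest for Thbs4, from -1.01 to 0.82.

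**Figure D4:**
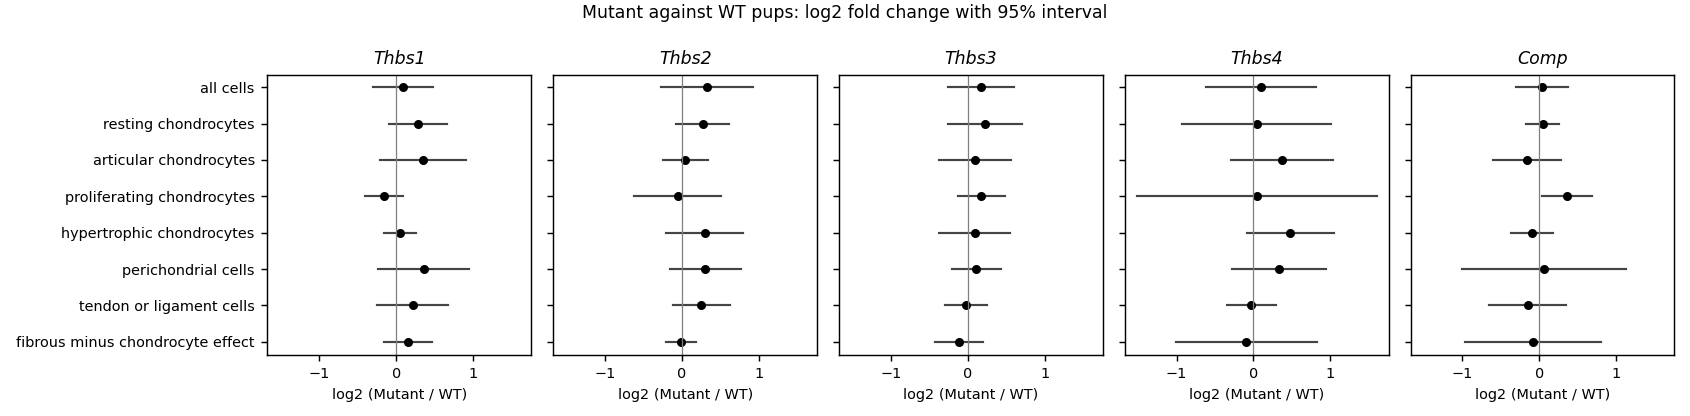
Log2 fold change of Mutant over WT pups for each member, as points with 95% intervals, over all cells, in 6 cell classes and for the difference between the effects in fibrous cells and chondrocytes. The interval of Comp in proliferating chondrocytes (0.04 to 0.69) is the only interval that leaves out 0, and the adjusted p of that value is 0.282.

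Genes that work with the thrombospondins were counted in the same tests in 5 lists. Receptors of thrombospondins (16 genes, among them Cd36, Cd47 and integrins), matrix partners of Comp (12 genes), proteases that cut thrombospondins or COMP (7 genes), TGF-β ligands (3 genes) and folding genes of the endoplasmic reticulum (9 genes) had no gene past an adjusted p of 0.05 in either direction in any of the 8 tests. Over all cells, 13 of 16 receptors had a log2 fold change above 0 (median 0.09), as did 10 of 12 matrix partners (median 0.22), 4 of 7 proteases (0.07), 2 of 3 TGF-β ligands (0.03) and 8 of 9 folding genes (0.12), against a median of -0.02 over all genes.

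Among the receptors, Sdc4, which codes for syndecan 4, had 1809 and 1420.0 CPM in the WT pups and 1428, 2053 and 2389 in the Mutant pups, a log2 fold change of 0.28 that did not pass. Cd36 was sparse, with a log2 fold change of -0.27 and an interval from -1.82 to 1.28. The matrix partners had their highest median in perichondrial cells, where 12 of 12 had a log2 fold change above 0, with a median of 0.36 against -0.01 over all genes and none under an unadjusted p of 0.05. The level of Acan in perichondrial cells, 898 CPM, lay below that in erythroid cells, 2274. For the difference of the genotype effect between fibrous cells (perichondrial and tendon or ligament) and chondrocytes, 5 of 12 matrix partners lay above 0 (median -0.0099). No difference between perichondrial cells alone and another class was tested for the list. In proliferating chondrocytes 5 of 12 lay above 0 (median -0.015), and in tendon or ligament cells 6 of 12. The largest perichondrial values were those of Matn4 (matrilin 4, 1.06, from -0.19 to 2.32) and Matn1 (matrilin 1, 0.85), which had its highest value, 485 CPM, in pup 5. Col12a1, which codes for type XII collagen, had 359 and 242 against 383, 486 and 426 in proliferating chondrocytes, with a log2 fold change of 0.52, an unadjusted p of 0.0153 and an adjusted p of 0.237 in edgeR's test.

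Tgfb2, the ligand TGF-β2, had 202 and 193 CPM over all cells in the WT pups and 269, 296 and 251 in the Mutant pups. The pups of the genotypes did not overlap, as was so for 22.5% of all genes. Its log2 fold change was 0.46 ± 0.10 (SE) with an adjusted p of 0.841 in edgeR's test. By class it was 0.56 in resting, 0.53 in articular, 0.35 in proliferating and 0.09 in hypertrophic chondrocytes, 0.44 in perichondrial cells and 0.38 in tendon or ligament cells, none past the adjusted threshold. The other ligands of the list lay below 0 in proliferating chondrocytes. Tgfb3 had 14.0 and 16.2 CPM there in the WT pups and 13.1, 11.9 and 11.6 in the Mutant pups. These did not overlap, as was so for 34.6% of all genes in that class. The log2 fold change was -0.31 with an adjusted p of 0.359 in edgeR's test. Tgfb1 had -0.30, from -0.76 to 0.16. The protease gene Mmp13 (collagenase 3) had 29.2 and 36.7 against 92.0, 66.3 and 70.7 over all cells, a log2 fold change of 1.21 ± 0.18 with an adjusted p of 0.841. Mmp13 was among the leading genes of the Tgfbi-expressing class, which made up 2.59% and 3.06% of the cells of the WT pups and 3.81%, 4.18% and 5.15% of those of the Mutant pups. Its part in the result was not tested. In hypertrophic chondrocytes, where Mmp13 is known to be made, its interval ran from -0.64 to 3.26.

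Among the folding genes, the 2 with the largest changes had opposite signs in resting, articular and proliferating chondrocytes and in perichondrial cells. Over all cells, in hypertrophic chondrocytes, in tendon or ligament cells and for the difference, both were above 0. Hspa5, which codes for the chaperone BiP, had its largest change in proliferating chondrocytes, a log2 fold change of -0.32 with 2690 and 3656 CPM in the WT pups and 3137, 2183 and 2304 in the Mutant pups, which overlapped. In resting chondrocytes it had -0.27, with 3297 and 4069 CPM in the WT pups and 3138, 2968 and 3075 in the Mutant pups, and an adjusted p of 0.804 in edgeR's test. Serpinh1, which codes for the collagen chaperone HSP47, had 0.37 in proliferating chondrocytes, with 3230.3 and 2881 against 3876, 4377 and 3558, and an adjusted p of 0.217. Neither passed the threshold.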

How the data were processed

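The authors captured single cells of each pup with the BD Rhapsody system and processed the reads with the pipeline offered for it, whose version is not given in the sources used here. The submitters' notes name the mm10 build. The deposited values are whole UMI counts per gene and cell, without normalization, and no columns of per-sample values were left out. The limits on cells (under 200 or over 6000 genes, or more than 10% of UMIs from mitochondrial genes) follow the study's methods.

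Pearson residuals (theta 100) of 3000 variable genes, without the 5 members and the listed genes, gave 50 principal components and 20 nearest neighbours with scikit-learn 1.9.0. Leiden clusters (resolution 1.5, seed 1) were found on a graph of shared neighbours with leidenalg 0.10.2. A cluster was named from fixed markers where at least 3 were detected in at least 10% of its cells and its leading genes did not favour another class. Classes with a marker score within 0.5 of the best were tried in the order of their scores. Doublets were kept, and cells in the top 10% of Scrublet scores (scanpy 1.11.5) were left out in an alternative. UMIs were summed per pup and class and tested with edgeR 4.0.16 (TMM, filterByExpr, robust quasi-likelihood fit) in R 4.3.3. DESeq2 1.42.0 was tried as another test. Depth ran from 117746735 to 183322632 UMIs per pup. No pairing of pups is given, and p-values measure the spread between single pups, each with 1 library.

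The genes named are the members, the 3 genes most like each member, the 2 genes of each list with the largest change among those with a mean of at least 20 CPM, and genes that check labels. Gm29233 and Mtx1 were added for their overlap, and Tgfb2 in every class, Tgfb1 and Tgfb3 after their values were seen. The members, lists and tests were chosen with earlier results of these data known, so no pattern here is independent of them.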

Additional observations from a re-analysis of the deposited data

How the results depend on the processing

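No member passed an adjusted p of 0.05 under any of 440 alternative values (smallest 0.106), and 59 of them had the other sign. RLE normalization, DESeq2 and no filter on low counts turned no sign. With coarser clusters the classes of the same names held other cells. There were 5386 resting, 8347 proliferating and 905 hypertrophic chondrocytes against 18872, 3398 and 3867, and 9803 tendon or ligament cells against 7891. At a Leiden resolution of 0.8 the log2 fold change was -0.069 for Thbs1 in resting and 0.046 in proliferating chondrocytes, 0.23 for Thbs2 in proliferating and -0.064 for Thbs3 in hypertrophic chondrocytes and 0.0497 for Thbs3 in tendon or ligament cells, and no cluster was named perichondrial. Without cells scored as doublets Thbs4 had -0.23 in proliferating chondrocytes and 0.0076 for the difference between fibrous cells and chondrocytes. The comparison of the pups with Ddx3y UMIs and that within the proliferating clusters were chosen after the data were seen. With only the pups with Ddx3y UMIs, where pup 5 is a lone Mutant sample taken to vary like the WT pups, all cells had -0.12 for Thbs2 and -0.56 for Thbs4, resting chondrocytes -0.0094 and -0.89, articular chondrocytes -0.028, -0.23 and for Comp 0.015, proliferating chondrocytes -1.37 for Thbs4, hypertrophic chondrocytes -0.026 for Thbs1 and -0.028 for Thbs4, perichondrial cells -0.0017 for Thbs3, tendon or ligament cells 0.18 for Comp, and the difference 0.016 for Thbs2, 0.53 for Thbs4 and 0.42 for Comp. Within proliferating cluster 16 Thbs1 had 0.037, and within cluster 22 Thbs1 had 0.052, Thbs2 0.37 and Thbs4 -0.52. The cause of these changes was not tested.

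Leaving out 1 pup at a time turned the sign of 20 of the 40 values. Over all cells the range was -0.033 to 0.21 for Thbs1, -0.15 to 0.34 for Thbs4 and -0.12 to 0.23 for Comp. In resting chondrocytes it was -0.26 to 0.35 for Thbs4 and -0.031 to 0.12 for Comp, and in articular chondrocytes -0.080 to 0.14 for Thbs2, -0.17 to 0.43 for Thbs3 and -0.42 to 0.17 for Comp. In proliferating chondrocytes it was -0.33 to 0.27 for Thbs2 and -0.32 to 0.45 for Thbs4, and in hypertrophic chondrocytes -0.0046 to 0.088 for Thbs1 and -0.13 to 0.38 for Thbs3. In perichondrial cells it was -0.044 to 0.30 for Thbs3 and -0.34 to 0.63 for Comp, and in tendon or ligament cells -0.13 to 0.086 for Thbs3, -0.18 to 0.14 for Thbs4 and -0.36 to 0.094 for Comp. For the difference it was -0.043 to 0.036 for Thbs2, -0.39 to 0.11 for Thbs4 and -0.35 to 0.18 for Comp.

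The number of genes called, 0 with edgeR, was 48 for all cells, 16 for resting, 1 for articular, 174 for proliferating and 3 for hypertrophic chondrocytes, 1 for perichondrial and 1 for tendon or ligament cells with DESeq2. Without a filter on low counts it was 18 for resting, 40 for articular, 749 for proliferating and 2 for hypertrophic chondrocytes, 27 for perichondrial and 29 for tendon or ligament cells. With 1 pup left out it ran from 0 to 6 for all cells, 0 to 9 for resting, 0 to 8 for articular, 0 to 68 for proliferating and 0 to 12 for hypertrophic chondrocytes, 0 to 6 for perichondrial and 0 to 5 for tendon or ligament cells. The highest counts came without pup 2 in the chondrocyte classes and without pup 5 in the others. With the pups with Ddx3y UMIs it was 4 for resting, 9 for articular and 1 for proliferating chondrocytes. Without pup 5 the genes called for all cells were Ddx3y, Eif2s3y, Kdm5d, Tsix, Uty and Xist, genes of the X and Y chromosomes. In tendon or ligament cells they were these genes without Tsix. Leaving out pup 5 sets pups with Ddx3y UMIs against pups with Xist UMIs, so genotype and sex cannot be told apart there. Xist was also the only gene that DESeq2 called in articular chondrocytes and in tendon or ligament cells. The level of Thbs1 in granulocytes was 18497 CPM without cells scored as doublets. At a resolution of 0.8 Thbs2 and Thbs4 in tendon or ligament cells had 822 and 839, Thbs2 in fibrocartilage cells 1011, and Comp in hypertrophic chondrocytes 3616. Those classes held other cells than at the finer resolution, with 905 hypertrophic chondrocytes against 3867. No paired analysis was possible because the labels give the genotypes no shared replicate numbers.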
